A study of Mus musculus with 21 samples.

Results

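The genes described here are *H2-Oa* and 8 other genes of MHC class II antigen presentation, *Cd74*, *H2-Aa*, *H2-Ab1*, *H2-Eb1*, *H2-DMa*, *H2-DMb1*, *H2-DMb2* and *Ciita*. They were chosen by symbol, 9 of the 55421 genes measured, together with the ChIP-seq peaks that name one of them as the nearest gene. *H2-Oa* was chosen because its level in sgControl was known to differ from that in the other conditions, so its values are given as a description, with no test. All cells came from 1 lymphoid progenitor (LP) line of mouse strain C57BL6/J that is described as deficient in *Ebf1*, a factor that B cells need, and that was grown on OP9 stroma cells with SCF, IL-7 and Flt3L. The LPs carried Cas9-GFP and a pool of 2 guide RNAs per gene against *Lmo2* (sgLmo2), *Zbtb1* (sgZbtb1), *Cbfa2t2* (sgCbfa2t2) or *Cbfa2t3* (sgCbfa2t3), or against luciferase (sgControl), and were sorted for GFP and hNGFR 5 days after the guide RNA was introduced. QuantSeq 3′ mRNA sequencing was done on 3 replicates for each of these 5 conditions, and ChIP-seq for Zbtb1 and for Cbfa2t3 on 2 replicates each of LPs without guide RNA. Whether the line is a single clone is not given in the sources used here.

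MHC class II molecules are pairs of an α and a β chain that show peptides from the endosomal pathway to CD4+ T cells. B cells, dendritic cells and macrophages carry them. The invariant chain, encoded by *Cd74*, escorts each new pair and fills its groove, and H2-DM (*H2-DMa* with *H2-DMb1* or *H2-DMb2*) then exchanges the remnant of the invariant chain for a peptide. H2-O, a pair of the *H2-Oa* and *H2-Ob* products, binds H2-DM and restrains it, and is known best from B cells. Transcription of most of these genes depends on CIITA, a coactivator that does not bind DNA itself and is recruited by the RFX, CREB and NF-Y factors assembled on the X and Y boxes of class II promoters.

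Promoter windows from RefSeq, on build GRCm38.p6 and from 250 bases before to 50 bases after each start, were at hand for 6 of the 9 genes (*H2-Oa*, *H2-Aa*, *H2-Eb1*, *H2-DMa*, *H2-DMb1* and *H2-DMb2*). The Y box is a CCAAT box, searched for as ATTGG on both strands. It was present in a window of each of these 6 genes, although for *H2-DMa* only in the second of its 2 windows, while 37.4% of all 32851 promoter windows hold it. The X box was searched for by a short core, GNNACNGAT, found in 7.82% of all windows. The core followed by ATTGG on the same strand after 15 to 30 bases was found in 40 windows, 0.122% of all, and *H2-Eb1* and *H2-DMb1* were among them with 23 and 24 bases between the boxes. A set of 4 stretches of 70 bases is shown because it sets *H2-Oa* beside the α and β chains and H2-DM. The capitals mark ATTGG and, where it matches, the X box core.

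H2-Oa: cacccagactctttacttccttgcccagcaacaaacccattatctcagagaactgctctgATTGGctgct
H2-Aa: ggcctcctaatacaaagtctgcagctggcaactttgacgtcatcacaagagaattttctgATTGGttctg
H2-Eb1: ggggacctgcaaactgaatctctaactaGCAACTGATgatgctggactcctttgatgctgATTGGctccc
H2-DMb2: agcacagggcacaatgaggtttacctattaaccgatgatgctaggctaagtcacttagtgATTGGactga

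These stretches lie on chromosome 17, at chr17:34092276-34092345 for *H2-Oa*, chr17:34287862-34287931 (minus strand) for *H2-Aa*, chr17:34305748-34305817 for *H2-Eb1* and chr17:34145099-34145168 for *H2-DMb2*. ATTGG began 43 bases before the RefSeq start of *H2-Oa*, 48 before that of *H2-Aa*, 59 before that of *H2-Eb1* and 90 before that of *H2-DMb2*. Gene positions given below are from GENCODE, where *H2-Oa* starts at 34092340, within its stretch. In the *H2-Oa* window a match to the X box core stood 140 bases before the start, farther from ATTGG than the spacing searched for, and the windows of *H2-Aa* and *H2-DMb2* held no match to these letters. A match is a description of the sequence and not evidence of binding.

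The libraries held 1705418 to 2095450 reads, so that a floor of 3 reads was worth 1.43 to 1.76 TPM. The deposited TPM values are shares of the reads of a library, scaled to the same total in each and not divided by length, which suits 3′ reads, since each transcript is read once near its 3′ end. Such reads cannot tell a cut coding sequence from an intact one, so the mRNA of the targeted genes does not check the labels. The study reports loss of Lmo2, Zbtb1 and Cbfa2t3 protein by immunoblotting, which was not analysed here. Cbfa2t2 is not among the proteins named for that blot. The labels are not checked either by the mRNA of *Ebf1*, which was read at 209 to 366 TPM in all 15 libraries although the line is described as deficient in it, since the part of the gene that was deleted is not given in the sources used here and the reads may lie outside it. *Zbtb1* mRNA was higher in the libraries labelled sgZbtb1 (94.4, 113 and 109 TPM) than in sgControl (62.7, 66.6 and 55.7 TPM), and *Cbfa2t3* mRNA in those labelled sgCbfa2t3 (340.5, 344 and 364 TPM) than in sgControl (210, 189 and 172 TPM). *Cbfa2t2* was at 25.5, 23.9 and 16.4 TPM in those labelled sgCbfa2t2 against 11.03, 12.2 and 12.3 TPM in sgControl, and *Lmo2* at 8.48, 24.4 and 15.9 TPM in sgLmo2 against 23.2, 16.2 and 15.8 TPM in sgControl. Of 11554 genes with a mean above 1 TPM, the share called against sgControl by limma at an adjusted p under 0.05 was 4.79% for sgZbtb1, 0.537% for sgCbfa2t3, 0.147% for sgCbfa2t2 and 0.0173% for sgLmo2.

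A total of 6 of the 9 class II genes passed the mean of 1 TPM, and only *H2-DMa*, *H2-Oa* and *Cd74* were above 3 reads in each of the 15 libraries. Over all libraries *H2-DMa* had a mean of 28.8 TPM, *H2-Oa* 13.4 TPM and *Cd74* 13.4 TPM. *H2-Aa* followed at 2.18 TPM, *H2-DMb2* at 1.74 TPM and *H2-Eb1* at 1.49 TPM. *H2-DMb1* (0.902 TPM), *H2-Ab1* (0.481 TPM) and *Ciita* (0.470 TPM) were below the mean of 1 TPM and entered no test. The LPs thus carried mRNA for the α chain of H2-DM and for the invariant chain, while the classical α and β chains were at the edge of detection.

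*H2-Oa* (ENSMUSG00000024334, chr17:34092340-34095234, plus strand), the α chain of H2-O, was lowest in sgControl, at 4.07, 7.52 and 4.10 TPM. It was at 16.4, 13.2 and 19.2 TPM in sgLmo2, and at 16.0, 16.2 and 21.3 TPM in the libraries labelled sgCbfa2t2. The libraries labelled sgZbtb1 had 11.2, 12.9 and 17.2 TPM, and those labelled sgCbfa2t3 10.7, 21.1 and 10.5 TPM. Every one of the 12 libraries with a guide RNA against a gene was above the 3 sgControl libraries. The share of all genes with 3 libraries above sgControl was 10.1% for sgZbtb1, 6.7% for sgCbfa2t3, 6.88% for sgCbfa2t2 and 5.62% for sgLmo2. Among all genes tested, 50 (0.433%) were above in this way in all 12 libraries.

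The group means of *H2-Oa* were 5.23 ± 1.99 TPM in sgControl, 13.8 ± 3.09 TPM in sgZbtb1, 14.1 ± 6.06 TPM in sgCbfa2t3, 16.3 ± 2.99 TPM in sgLmo2 and 17.8 ± 2.98 TPM in sgCbfa2t2 (SD, n = 3). Between neighbours in this order the libraries overlapped, except between sgControl and sgZbtb1. On the log2(TPM + 1) scale the difference from sgControl was 1.63 in sgCbfa2t2, 1.50 in sgLmo2, 1.27 in sgZbtb1 and 1.25 in sgCbfa2t3, each with an SE of 0.34, which is 3.09-, 2.83-, 2.41- and 2.38-fold on that scale. These 4 differences share the same 3 sgControl libraries and are not independent of each other. Leaving out sgCbfa2t3 replicate 2, the highest library of its group, gave 0.94 for sgCbfa2t3, and the other values with a library left out were between 1.11 and 1.88.

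The reads behind these values were few. The sgControl libraries held 7, 13 and 7 *H2-Oa* reads, 27 in all. The 3 libraries of sgLmo2 held 91, those of sgZbtb1 82, those of sgCbfa2t2 108 and those of sgCbfa2t3 76. The exact 95% binomial interval of sgControl replicate 2, the highest control, was 4.01 to 12.9 TPM, and that of sgCbfa2t3 replicate 3, the lowest of the other 12, was 6.34 to 16.4 TPM. These intervals overlap, and they cover counting error only, since the reads were not counted by molecule. None of the 75-base windows in the last 500 bases of *H2-Oa* transcripts was found in a transcript of another gene. Its antisense neighbour *BC051537*, which shares 321 exonic bases with it, had a median of 0 TPM.

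*H2-Ob*, the β chain that pairs with *H2-Oa* in H2-O, was read from the list of further class II loading genes. It was at 13.4, 17.4 and 13.5 TPM in sgControl, 14.1, 21.0 and 9.86 TPM in sgLmo2, and 13.97, 12.4 and 7.86 TPM in the libraries labelled sgZbtb1. In those labelled sgCbfa2t2 it was at 9.58, 22.0 and 21.7 TPM, and in those labelled sgCbfa2t3 at 24.1, 20.6 and 9.97 TPM. The groups overlapped, and the log2 differences from sgControl were −0.37 for sgZbtb1, −0.03 for sgLmo2, 0.18 for sgCbfa2t2 and 0.21 for sgCbfa2t3, with limma adjusted p of 0.627, 0.998, 0.924 and 0.876. Across the 15 libraries Pearson's r between the 2 chains of H2-O was 0.053 on the log2 scale, as a description of libraries that share their culture and depth.

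**Figure D1:**
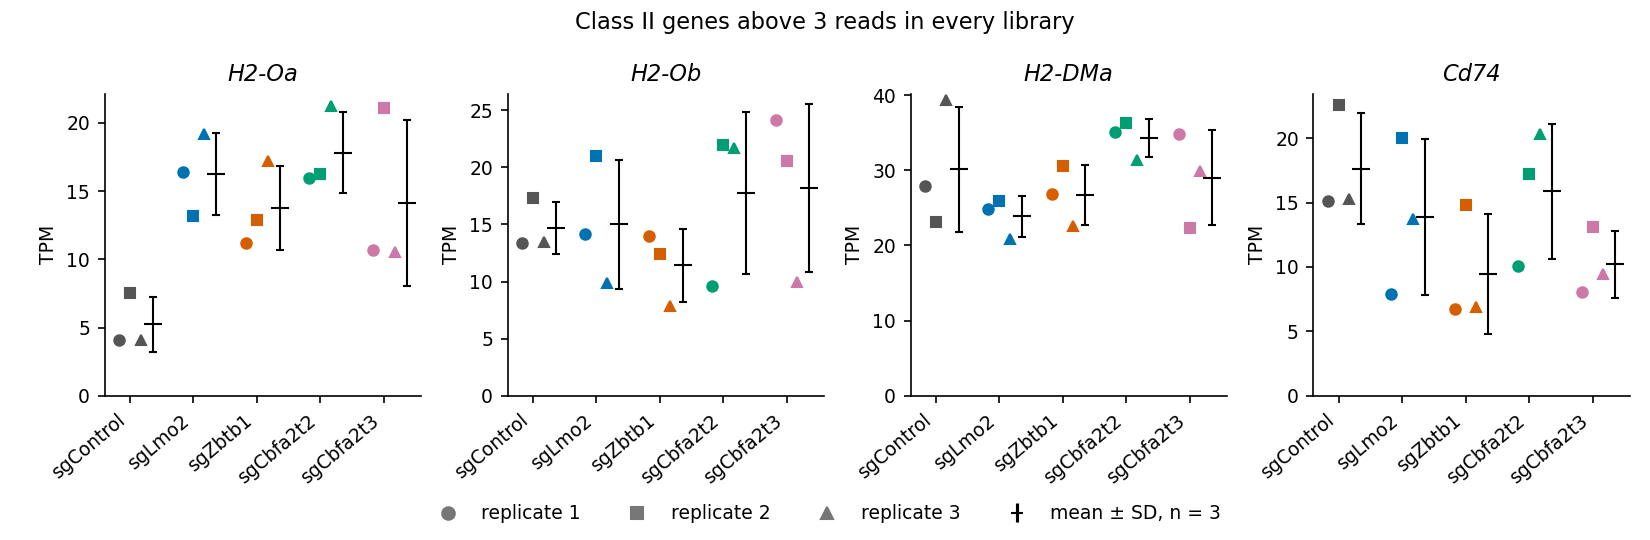
TPM by library for *H2-Oa*, its partner *H2-Ob*, *H2-DMa* and *Cd74* in the 5 conditions, with 1 symbol for each replicate number and the mean ± SD (n = 3) beside them. For *H2-Oa* the sgControl libraries are the lowest 3 of 15, while for *H2-Ob* they lie within the range of the others. For *H2-DMa* 1 sgControl library, at 39.3 TPM, is the highest of all 15.

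*Cd74*, the invariant chain (chromosome 18, 60803848 to 60812652, plus strand), was at 15.1, 22.6 and 15.2 TPM in sgControl. The libraries labelled sgZbtb1 had 6.70, 14.8 and 6.87 TPM, and those labelled sgCbfa2t3 8.04, 13.1 and 9.42 TPM, in both cases all 3 below the 3 sgControl libraries. The share of all genes whose 3 libraries were all below sgControl was 12.8% for sgZbtb1 and 9.06% for sgCbfa2t3. In sgLmo2 (7.92, 20.0 and 13.7 TPM) and sgCbfa2t2 (10.1, 17.2 and 20.3 TPM) the values overlapped those of sgControl. Beside these shares the position of *Cd74* alone is no result. *H2-Oa* was above sgControl in the same libraries, but it was chosen for its difference from sgControl.

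The log2 difference of *Cd74* was −0.89 in sgZbtb1 (SE 0.36, 95% interval −1.61 to −0.18), with an adjusted p of 0.138 by limma over all genes, and −0.74 in sgCbfa2t3 (SE 0.36, 95% interval −1.45 to −0.03), with an adjusted p of 0.449. Neither passed the threshold. The unadjusted limma p was 0.0145 and 0.0424, and 17.6% and 10.6% of all genes had an unadjusted p under 0.05 in these comparisons. In sgCbfa2t2 the difference was −0.17 (adjusted p 0.930) and in sgLmo2 −0.39 (adjusted p 0.947). Over the alternatives tried, the adjusted p of *Cd74* in sgZbtb1 was between 0.0637 and 0.402.

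*H2-DMa* (chr17:34119541-34139101, plus strand), the α chain of H2-DM, had the highest mean of the 9 genes in each condition. It was at 27.9, 23.2 and 39.3 TPM in sgControl and at 20.8 to 36.3 TPM in the other 12 libraries. The means were 30.1 ± 8.30 TPM in sgControl, 23.9 ± 2.69 TPM in sgLmo2, 26.7 ± 4.01 TPM in sgZbtb1, 34.3 ± 2.55 TPM in sgCbfa2t2 and 29.0 ± 6.34 TPM in sgCbfa2t3 (SD, n = 3). The log2 differences ran from −0.30 in sgLmo2 to 0.21 in sgCbfa2t2, with limma adjusted p from 0.812 to 0.973, and the 95% intervals of all 4 lay between −0.76 and 0.68. A transcript of *H2-DMa* shares 360 exonic bases with *Brd2* on the opposite strand, a gene at a median of 466 TPM, and whether strand was used in the counting is not given in the sources used here.

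The β chains of H2-DM were far lower than its α chain. *H2-DMb2* (chr17:34143307-34151555) was at 2.32, 1.16 and 2.93 TPM in sgControl and at 3.19, 3.82 and 1.93 TPM in sgCbfa2t2. In sgCbfa2t3 it was at 3.75, 2.85 and 0 TPM and in sgLmo2 at 0, 1.47 and 1.095 TPM. The libraries labelled sgZbtb1 had 0.558, 0.478 and 0.491 TPM, which is 1 read in each, all below sgControl, as were 12.8% of all genes in this comparison. The log2 difference in sgZbtb1 was −1.01 (SE 0.61) with a limma adjusted p of 0.406, and with edgeR it was −1.92 (adjusted p 0.399), so that its size cannot be read from so few reads.

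*H2-DMb1* (chr17:34153072-34160230) was at 0 to 1.96 TPM, above 3 reads in only 2 of 15 libraries, with 26 reads in all. Of the 75-base windows in the last 500 bases of its transcripts, 15.7% were identical in *H2-DMb2*, so that reads could be split between the paralogs or lost, depending on the counting. For *H2-DMb2* 6.25% of the windows were found in other genes.

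The classical chains were at the edge of what this depth shows. *H2-Aa* (chr17:34282744-34287823, minus strand), the α chain of I-A, was at 0, 5.79 and 4.10 TPM in sgControl and at 0 to 4.83 TPM in the other libraries, with 62 reads in all. *H2-Ab1* (chr17:34257689-34269419), the β chain that pairs with it, was at 0 in 8 of 15 libraries and had 14 reads in all, at most 2.39 TPM. *H2-Eb1* (chr17:34305867-34316674), the β chain of I-E, was at 0, 6.37 and 0.586 TPM in sgControl and at 0 to 4.43 TPM elsewhere. Mice of the C57BL/6 strain lack a working I-E α chain, and the row of its pseudogene, *H2-Ea-ps*, was at 0 in all 15 libraries.

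The sum of *H2-Aa*, *H2-Ab1* and *H2-Eb1* was 0.580, 12.2 and 4.69 TPM in sgControl, 0.565, 6.35 and 4.38 TPM in sgLmo2, and 2.23, 7.17 and 4.42 TPM in sgZbtb1. It was 2.13, 0.477 and 7.73 TPM in sgCbfa2t2 and 0, 2.28 and 7.20 TPM in sgCbfa2t3. The range over the 3 libraries of each condition was larger than any difference between the means of conditions. The log2 difference of *H2-Aa* ran from −0.70 in sgCbfa2t3 to −0.09 in sgZbtb1 with an SE of 0.65, and that of *H2-Eb1* from −0.39 in sgLmo2 to 0.06 in sgZbtb1 with an SE of 0.69. With edgeR and DESeq2 on the recovered reads *H2-Aa* was at −1.28 and −1.33 in sgCbfa2t3 and at −0.56 and −0.58 in sgZbtb1, with no call. With the same tools *H2-Eb1* was below sgControl in all 4 comparisons, from −1.35 and −1.45 in sgLmo2 to −0.58 and −0.61 in sgZbtb1, with no call. The limma adjusted p of these 2 genes was 0.756 to 0.989.

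*Ciita* (chr16:10480059-10528418, plus strand), the coactivator of class II genes, was at 0 in 8 of 15 libraries and above 3 reads in none. Its values were 0, 1.74 and 1.17 TPM in sgControl and at most 1.71 TPM, in sgCbfa2t3 replicate 2, in the other 12. It had 13 reads in all, and no difference between conditions was detectable at this depth. *Dexi* on the opposite strand shares 329 exonic bases with it.

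**Figure D2:**
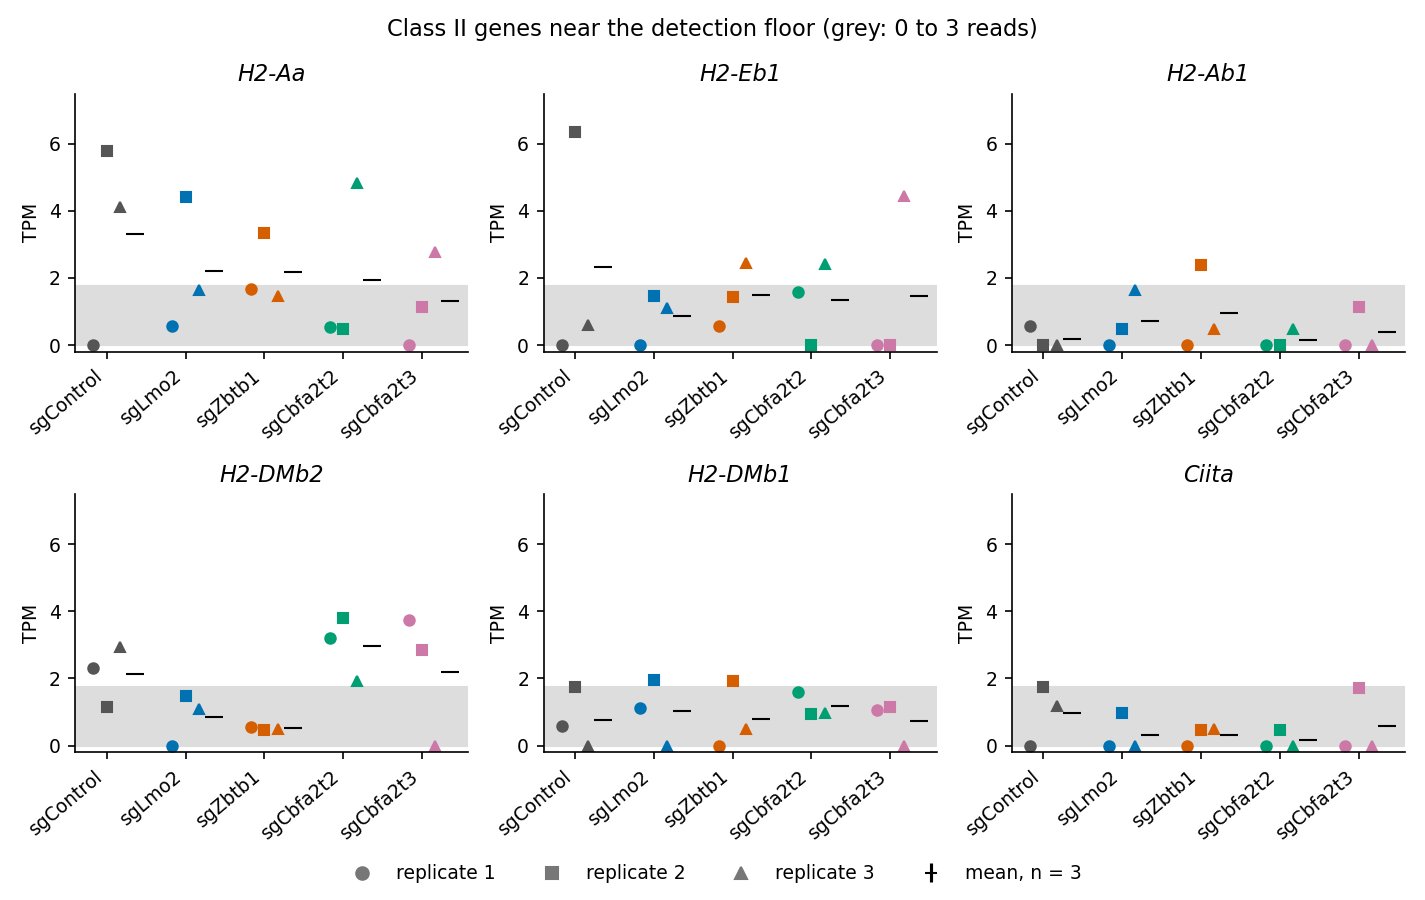
TPM by library for *H2-Aa*, *H2-Eb1*, *H2-Ab1*, *H2-DMb2*, *H2-DMb1* and *Ciita*, with 1 symbol for each replicate number, a bar for the mean (n = 3) and a grey band for values up to 3 reads. Most points lie in the band, and the highest values, 5.79 TPM for *H2-Aa* and 6.37 TPM for *H2-Eb1*, both come from sgControl replicate 2.

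Of the 5 class II genes other than *H2-Oa* that could be tested, 0 were called in each of the 4 comparisons by limma, against the background of 4.79% of genes for sgZbtb1, 0.537% for sgCbfa2t3, 0.147% for sgCbfa2t2 and 0.0173% for sgLmo2. At an unadjusted p under 0.05, limma counted 1 of 5 (*Cd74*) in sgZbtb1, 1 in sgCbfa2t3 (*Cd74* again), and 0 in sgCbfa2t2 and sgLmo2, where 9.56% and 5.65% of all genes had such a p. On the recovered reads edgeR and DESeq2 also called 0 in each comparison, although DESeq2 gave an adjusted p for 3 of the 5 in sgZbtb1, for all 5 in sgLmo2 and for 0 in the other comparisons. For edgeR the background was 4.91% of genes for sgZbtb1, 0.502% for sgCbfa2t3, 0.147% for sgCbfa2t2 and 0.0173% for sgLmo2. For DESeq2 it was 4.41%, 0.459%, 0.138% and 0.026% in the same order. Beside such backgrounds 0 of 5 is no result about these genes, and differences of the size of the standard errors could not have been seen.

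**Figure D3:**
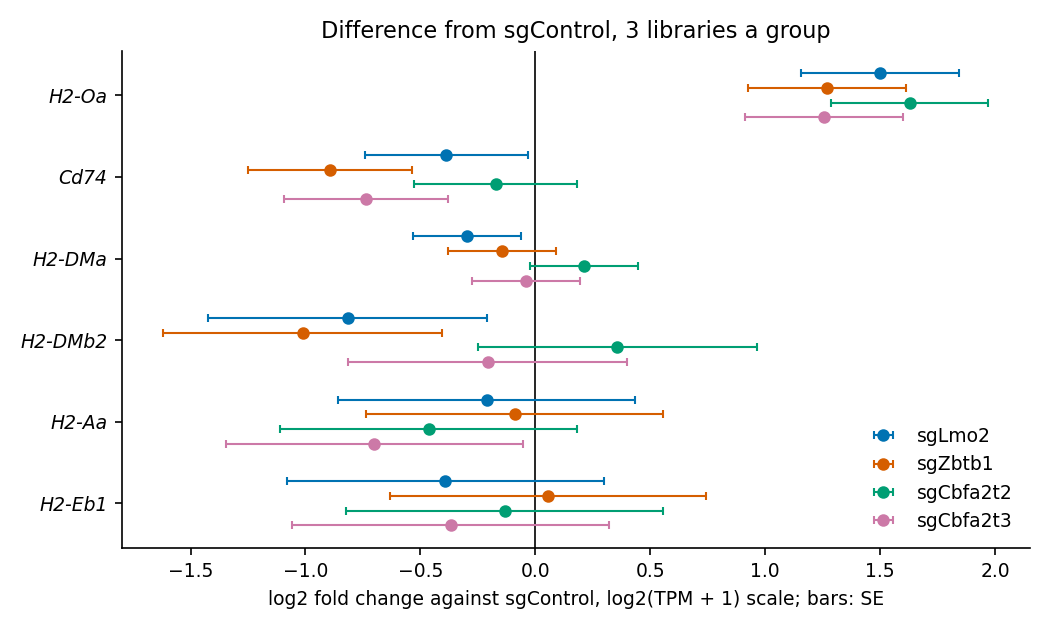
Log2 fold change against sgControl on the log2(TPM + 1) scale for the 6 class II genes with a mean above 1 TPM, with bars for the SE (3 libraries a group). The 4 points of *H2-Oa* lie between 1.25 and 1.63, *Cd74* lies between −0.89 and −0.17, and *H2-DMa* between −0.30 and 0.21.

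The genes that assemble on class II promoters, *Rfx5*, *Rfxank*, *Rfxap*, *Nfya*, *Nfyb*, *Nfyc* and *Creb1*, were all expressed, and 0 of 7 were called in any comparison by limma (0 at an unadjusted p under 0.05). With 0.0173% to 4.79% of all genes called in the 4 comparisons, and 5.65% to 17.6% at an unadjusted p under 0.05, 0 of 7 is no result about these factors. Their median log2 difference was 0.08 for sgZbtb1, 0.04 for sgCbfa2t3, 0.05 for sgCbfa2t2 and −0.03 for sgLmo2, beside −0.03, −0.01, 0.00 and 0.01 over all genes tested. *Rfx5*, the DNA-binding subunit of RFX, was at a median of 13.97 TPM, and *Nfyb*, a subunit of NF-Y, at 105 TPM. All 7 mRNAs were thus measured in LPs in which *Ciita* was near 0.

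Among 12 tested factors that act on *Ciita*, such as the interferon-γ receptor, JAK kinases, IRF factors and PU.1, 1 was called in sgLmo2, 1 in sgCbfa2t3, and 0 in sgZbtb1 and sgCbfa2t2, beside 0.0173%, 0.537%, 4.79% and 0.147% of all genes. At an unadjusted p under 0.05 limma counted 4 of the 12 in sgZbtb1, beside 17.6% of all genes, and 1 in each other comparison, beside 10.6% for sgCbfa2t3, 9.56% for sgCbfa2t2 and 5.65% for sgLmo2. *Irf8*, an IRF factor of myeloid and B cells, fell in sgLmo2 from 116 ± 4.74 to 57.0 ± 5.60 TPM (SD, n = 3, log2 difference −1.01, limma adjusted p 1.2e-06). *Irf1*, which interferon-γ induces, fell in sgCbfa2t3 from 71.99 ± 4.24 to 45.2 ± 11.8 TPM (log2 difference −0.69, limma adjusted p 0.0277). *Spi1*, which encodes PU.1, was at a median of 118 TPM, and *Prdm1*, a repressor of *Ciita* in plasma cells, was at 0 in all libraries.

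Of the further loading and turnover genes, 11 of 14 names had a row, 9 were tested and 0 were called by limma in any comparison (at an unadjusted p under 0.05, 3 for sgLmo2, 2 for sgZbtb1, 1 for sgCbfa2t3 and 0 for sgCbfa2t2, beside 5.65%, 17.6%, 10.6% and 9.56% of all genes). With 0.0173% to 4.79% of all genes called in the 4 comparisons, 0 of 9 is no result about this list. *Ctss*, the cathepsin that trims the invariant chain, was at a median of 19.1 TPM and *Ctsd*, an endosomal protease, at 133 TPM. *Sppl2a*, the protease that clears the last membrane stub of the invariant chain, was at 144 TPM. The protease *Lgmn* was at 0.580 to 10.5 TPM and had a log2 difference of 1.47 in sgZbtb1 with a limma adjusted p of 0.0559. It also had 0.90 in sgCbfa2t3, 0.91 in sgCbfa2t2 and 1.12 in sgLmo2, against the same sgControl libraries. *Ctsl*, another lysosomal protease, had −0.50 in sgZbtb1 with a limma adjusted p of 0.0585. In sgCbfa2t3, sgCbfa2t2 and sgLmo2 *Ctsl* had −0.50, −0.10 and 0.24. Neither was called.

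The class I pathway, which presents peptides from the cytosol, was set beside these genes because *H2-K1* lies in the same region. All 13 of its genes were tested. In sgZbtb1 2 of 13 fell, where 4.79% of all genes were called, and 0 were called in the other 3 comparisons, with 0.537%, 0.147% and 0.0173% of all genes called for sgCbfa2t3, sgCbfa2t2 and sgLmo2. At an unadjusted p under 0.05 limma counted 5 of 13 in sgZbtb1, beside 17.6% of all genes, 3 in both sgCbfa2t3 and sgCbfa2t2, beside 10.6% and 9.56%, and 1 in sgLmo2, beside 5.65%. *H2-K1*, a classical class I heavy chain, fell from 233 ± 18.3 to 131 ± 7.25 TPM (log2 difference −0.82, limma adjusted p 4.12e-08), and *H2-D1*, the other, from 299 ± 35.03 to 198 ± 8.499 TPM (−0.58, limma adjusted p 4.51e-05; SD, n = 3). Of the 75-base windows at the 3′ end of *H2-K1*, 1.81% also occur in other genes. *Nlrc5*, the class I counterpart of *Ciita*, was at 1.68 to 16.2 TPM with a log2 difference of −1.23 in sgZbtb1 (limma adjusted p 0.0824, not called), and *B2m*, the light chain of class I molecules, had −0.23 (limma adjusted p 0.0535, not called).

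Among 31 protein-coding neighbours within 250 kb of the class II genes on chromosome 17, 20 were tested. *H2-K1* in sgZbtb1 was the only call, 1 of 20 beside 4.79% of all genes, and 0 neighbours were called for sgCbfa2t3, sgCbfa2t2 and sgLmo2, beside 0.537%, 0.147% and 0.0173%, which is no result about them. At an unadjusted p under 0.05 limma counted 4 of 20 in both sgZbtb1 and sgCbfa2t2, 3 in sgCbfa2t3 and 2 in sgLmo2, beside 17.6%, 9.56%, 10.6% and 5.65% of all genes in this order. The median log2 difference of the neighbours was −0.10 for sgZbtb1, 0.05 for sgCbfa2t3, 0.15 for sgCbfa2t2 and 0.04 for sgLmo2.

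**Figure D4:**
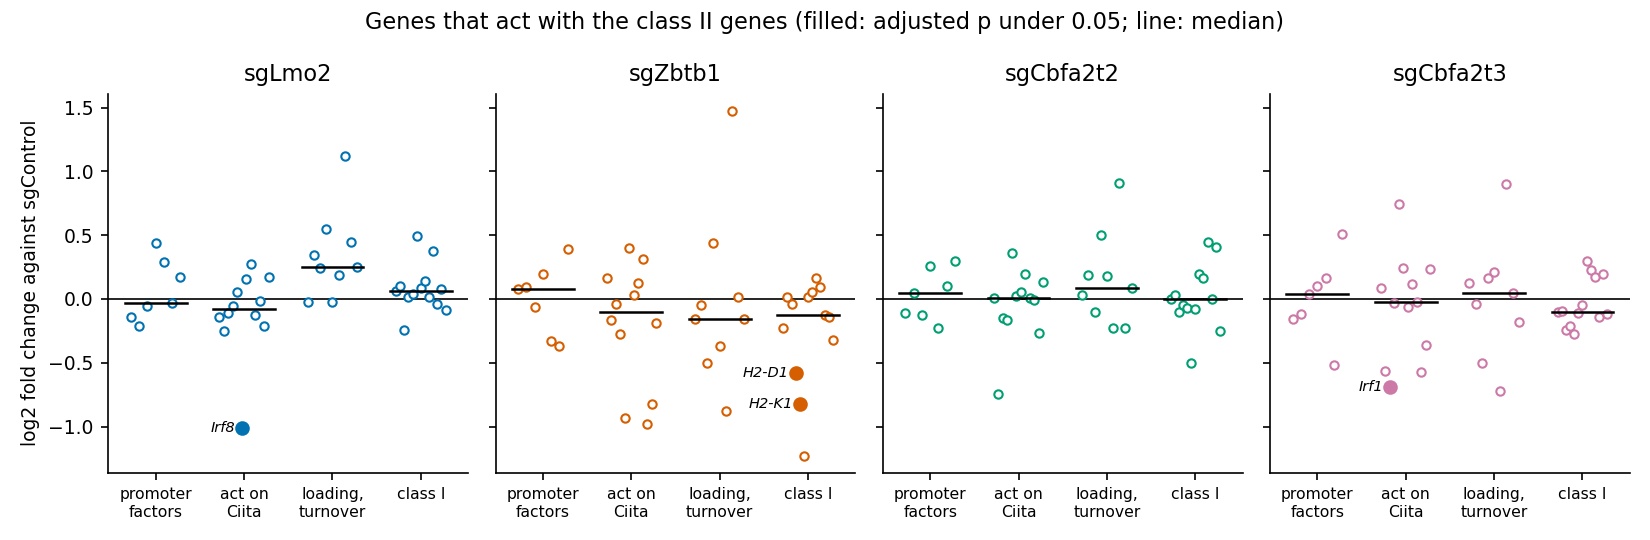
Log2 fold change against sgControl for the promoter factors, the factors that act on *Ciita*, the loading and turnover genes and the class I genes, 1 point a gene and 1 panel a comparison, with lines for the medians and filled points for limma adjusted p under 0.05. The 4 filled points are *Irf8* in sgLmo2, *H2-K1* and *H2-D1* in sgZbtb1 and *Irf1* in sgCbfa2t3, all below 0.

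The 5 genes whose levels followed *H2-Oa* most closely over the 15 libraries, among 8156 genes with a mean above 10 TPM, were *Poldip2* (Pearson's r 0.866), *Tyw5* (0.858), *Slc5a3* (0.818), *Selenot* (0.797) and *Commd10* (0.796). All 5 were lowest on average in sgControl, as was *H2-Oa*, which a high r with it favours. *Poldip2* was at 48.7 ± 2.18 TPM there and at 63.8 to 69.8 TPM on average in the other conditions, and *Commd10* at 21.0 ± 0.720 TPM and at 31.6 to 37.4 TPM. None of them is a class II gene, but of the other 8 only *H2-DMa* and *Cd74* had a mean above 10 TPM and could be ranked. Pearson's r between *H2-Oa* and the other 8 class II genes lay between −0.33 (*H2-DMa*) and 0.30 (*H2-Ab1*). The libraries share 1 culture line and a similar depth, and these correlations are a description.

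Since class II genes mark mature antigen-presenting cells, marker lists were read in the same libraries. Of the 8 B cell markers *Ms4a1* and *Cd79a* were at 0 in all libraries, while *Pax5* reached 18.1 TPM and *Vpreb1* 4.91 TPM, and the summed level of the list was 5.79 to 9.38 TPM in sgControl, 9.31 to 21.0 TPM in sgLmo2, 0.558 to 8.35 TPM in sgZbtb1, 4.26 to 6.76 TPM in sgCbfa2t2 and 2.68 to 5.14 TPM in sgCbfa2t3. *Pax5*, the B cell commitment factor, was 6.80 ± 1.51 TPM in sgControl and 0.810 ± 0.747 TPM in sgZbtb1 (log2 difference −2.19, limma adjusted p 0.0042). It was the 1 of 2 B cell markers tested that was called there, beside 4.79% of all genes. The median log2 difference of the 2 was −0.81, so that the other went the other way, without a call. Of the dendritic cell markers *Xcr1*, *Clec9a* and *Cd209a* were at 0 in all libraries, and the summed level, 873 to 1009 TPM in sgControl and 315 to 398 TPM in sgZbtb1, came mostly from *Ccr9*, a chemokine receptor of several lymphoid cells. It was 885 to 1136 TPM in sgLmo2, 519 to 774 TPM in sgCbfa2t2 and 507 to 649 TPM in sgCbfa2t3. *Ccr9* fell in sgZbtb1 (log2 difference −1.36), sgCbfa2t3 (−0.70) and sgCbfa2t2 (−0.52), with limma adjusted p of 5.35e-17, 4.57e-06 and 0.00502. It was the 1 of 3 dendritic cell markers tested that was called in each, beside 4.79%, 0.537% and 0.147% of all genes.

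The macrophage list summed to 109 to 157 TPM in sgControl, 166 to 221 TPM in sgLmo2, 49.6 to 82.2 TPM in sgZbtb1, 125 to 145 TPM in sgCbfa2t2 and 107 to 132 TPM in sgCbfa2t3, with *Cd14* at 0 throughout and *Lyz2* at no more than 1.68 TPM. *Adgre1*, the F4/80 gene, was the 1 of 4 tested that was called, beside 4.79% of all genes, and fell in sgZbtb1 (log2 difference −1.19, limma adjusted p 5.47e-08). The OP9 stroma list held *Col3a1* and *Dcn* at 0 and summed to 1.47 to 12.2 TPM over all libraries. The T cell list had *Cd8a* at 0 and summed to 11.95 to 32.3 TPM, nearly all from *Trac*. The 7 lymphoid progenitor markers summed to 715 to 919 TPM, and in sgZbtb1 *Cd34* rose (log2 difference 0.53, limma adjusted p 0.00107) and *Kit* fell (−1.14, limma adjusted p 0.0205). These were the only calls in sgZbtb1 among the 7, all tested, beside 4.79% of all genes. The sums of the B cell, dendritic cell and macrophage lists were within or below the range of sgControl in sgZbtb1, sgCbfa2t2 and sgCbfa2t3, whereas in sgLmo2 the B cell sum (9.31 to 21.0 TPM against 5.79 to 9.38 TPM) and the dendritic cell sum (885 to 1136 TPM against 873 to 1009 TPM) reached above the range of sgControl, and the macrophage sum, most of it *Adgre1*, was above that of sgControl in all 3 libraries. The median log2 difference of the 4 macrophage genes tested in sgLmo2 was nevertheless −0.83, with 3 at an unadjusted limma p under 0.05 and 0 called. In bulk samples fewer cells of a type and less RNA per cell cannot be told apart, and their part in the levels of the class II genes was not tested.

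The ChIP-seq peaks show where Zbtb1 and Cbfa2t3 were bound near these genes. The Zbtb1 list held 5898 peaks with a median score of 28 and the Cbfa2t3 list 6077 peaks with a median score of 33.2, each made from peaks reproducible in 2 replicates. In each list 2 peaks named 1 of the 9 genes as the nearest. Both Zbtb1 peaks and both Cbfa2t3 peaks lay on chromosome 17, and none of these 4 positions was shared between the factors.

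The Cbfa2t3 peak assigned to *H2-Oa* lay in intergenic sequence at chr17:34068902-34069280, 23288 bases before its start, with a score of 27.3, which 66.6% of the list exceeded. The other Cbfa2t3 peak was assigned to *H2-DMb2*, at chr17:34143010-34143388 and 2217 bases before its RefSeq start, with a score of 25.7. That peak is centred 0.108 kb from the start of the longest GENCODE annotation of *H2-DMb2*. Both are below the median score of the list.

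The first Zbtb1 peak lay on a promoter of *H2-DMa*, at chr17:34122636-34123006 and 11 bases before the start, with a score of 18.9, which 78.5% of the list exceeded. The other was in exon 4 of 5 of *H2-Aa*, at chr17:34283062-34283432 and 4524 bases from its start, with a score of 52.4, higher than 76.8% of the list. *H2-Oa* had no Zbtb1 peak of its own, the closest being that of *H2-DMa* at 30.5 kb. No peak of either list named *Cd74*, *H2-Ab1*, *H2-Eb1*, *H2-DMb1* or *Ciita*, and the closest peaks to the start of *Ciita* were at 65.6 kb for Zbtb1 and 189 kb for Cbfa2t3.

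Sequence at the centre of 3 of these peaks is shown because the lists assign them to *H2-Oa*, *H2-DMb2* and *H2-Aa*. It is read from the plus strand of GRCm38.p6, at chr17:34068992-34069191, chr17:34143100-34143299 and chr17:34283198-34283297 in this order, and the last lies within the coding exon. The capitals mark TGTGGT, the core of the Runx motif, on either strand.

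Cbfa2t3 peak before H2-Oa: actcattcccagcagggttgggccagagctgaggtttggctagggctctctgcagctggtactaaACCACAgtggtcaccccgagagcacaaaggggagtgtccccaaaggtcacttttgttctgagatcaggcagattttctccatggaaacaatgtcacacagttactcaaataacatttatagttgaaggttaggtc
Cbfa2t3 peak before H2-DMb2: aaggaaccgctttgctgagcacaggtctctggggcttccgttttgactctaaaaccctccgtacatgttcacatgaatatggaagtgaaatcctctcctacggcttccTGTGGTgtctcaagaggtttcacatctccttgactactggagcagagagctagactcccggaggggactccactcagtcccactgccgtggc
Zbtb1 peak in H2-Aa: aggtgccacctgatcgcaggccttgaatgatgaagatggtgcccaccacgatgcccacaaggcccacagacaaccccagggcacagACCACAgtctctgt

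The central 200 bases of all 4 peaks held the Runx core once, while 41.3% of the central windows of all Zbtb1 peaks and 43.7% of those of Cbfa2t3 hold it. None of the 4 held TGGTGGT, a motif searched for on both strands that is in 15.8% of the Zbtb1 windows and 7.02% of the Cbfa2t3 windows and that shares letters with the Runx core. No match says only that these letters are not in the window.

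Other peaks lay in the class II region with another gene as the nearest. The strongest, in intron 5 of *Tap2*, a peptide transporter of the class I pathway between *H2-DMb1* and *H2-Ab1*, was in both lists, with a score of 290 for Zbtb1 and 167 for Cbfa2t3 and 343 shared bases. It was the only position in the region where the 2 lists overlapped. *Tap2* itself was not called in any comparison, with log2 differences of −0.14 in sgZbtb1 and 0.19 in sgCbfa2t3 (limma adjusted p 0.654 and 0.667). A Cbfa2t3 peak with a score of 46.9 at chr17:34129489-34129867 has no gene name in the list but carries a transcript accession of *H2-DMa*, in whose intron 1 it lies. A further Cbfa2t3 peak, with a score of 22.3, was 10002 bases from the start of *H2-Ob*.

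Of the tested genes nearest to a peak, 0 were called in the comparison for the same factor, 0 of 2 for Zbtb1 and 0 of 1 for Cbfa2t3. The background of 4.79% and 0.537% of all genes called makes this no result about genes with a peak. *H2-DMa* and *H2-Aa*, those nearest to the Zbtb1 peaks, had log2 differences of −0.15 and −0.09 in sgZbtb1 (limma adjusted p 0.812 and 0.966). *H2-DMb2*, the tested gene nearest to a Cbfa2t3 peak, had a log2 difference of −0.21 in sgCbfa2t3 (limma adjusted p 0.940). *H2-Oa* had a Cbfa2t3 peak at a distance and was higher in the libraries labelled sgCbfa2t3, but also in the other 3 conditions, and the relation of that peak to its level was not tested.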

How the data were processed

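QuantSeq 3′ mRNA sequencing was analysed in 15 libraries and ChIP-seq in 2 peak lists. The authors trimmed the QuantSeq reads with fastp and mapped them to mm10 with STAR, while the counter and its strand setting are not given in the sources used here. ChIP reads were mapped with Bowtie 1.1.1, a version taken from the submitters' processing notes, and HOMER called peaks against matched input and kept those reproducible in 2 replicates. The authors deposited values named TPM that are CPM, since in each library the low values were whole multiples of what 1 read is worth, whatever the length of the gene (100% within 0.1 of a read). Read numbers were recovered from them. The peak score is that of HOMER as deposited by the authors, 1 value a peak for both replicates, at least 15 for Zbtb1 and 20.6 for Cbfa2t3 in the lists. A single row without a gene identifier was left out.

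Genes with a mean above 1 (11554) were fitted with limma 3.58.1 in R 4.3.3 (lmFit, eBayes with trend) on log2(TPM + 1), all 15 libraries together, each guide RNA against sgControl, two-sided, with Benjamini-Hochberg adjustment over all genes and a threshold of 0.05. The code was tested on simulated data. With 3 libraries a group an exact permutation test cannot give a p under 0.1, and none was used. The study's methods call the replicates biologically independent, while the labels do not say what separates them, and p-values measure the spread between these samples. Alternatives were another pseudocount, no filter, 6 libraries alone, a replicate block, other scaling, edgeR 4.0.16 and DESeq2 1.42.0 on the recovered reads as whole numbers, and each library left out.

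The 9 genes, the further lists and the rule for named genes were chosen with earlier results of these data known. The rule took, from each list and from the neighbours on chromosome 17, at most the 3 genes with the smallest adjusted p under 0.05 in a comparison, and the 5 genes with the highest Pearson's r with *H2-Oa* among those with a mean above 10 TPM. Other genes of the lists named with a level, such as *H2-Ob*, *Lgmn*, *Ctsl*, *Nlrc5*, *B2m* and *Tap2*, were chosen after their values were seen.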

Additional observations from a re-analysis of the deposited data

How the results depend on the processing

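The count of class II genes other than *H2-Oa* called against sgControl stayed at 0 in the 50 alternative fits over the 4 comparisons that gave an adjusted p, which were run with a pseudocount of 0.1, no filter, the 6 libraries alone, size factors by median of ratios, a replicate block, edgeR, DESeq2 and each library left out. DESeq2 gave no adjusted p for 2 of the 5 genes in sgZbtb1, nor for any of them in sgCbfa2t3 and sgCbfa2t2, so that these 2 counts are void. In the fit with the replicate block the lowest adjusted p was 0.0943, for *Cd74* in sgZbtb1, and 0 genes were called. The numbers were not used to pair the libraries, since the deviations from the group means correlated by only −0.013 to 0.11 between libraries with the same number and the labels do not say what a number shares. The mean correlation was nevertheless 0.041 with the same number and −0.020 with another, and 13 of the 15 libraries correlated best with libraries of their own number, a hint from the data and not the design. Without sgZbtb1 replicate 2 the adjusted p of *Cd74* in sgZbtb1 was 0.0637 with a log2 difference of −1.24.

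Of 312 log2 differences under an alternative, 282 kept their direction and 30 changed sign. Without a filter, with the replicate block and with the 6 libraries alone the differences equalled those of the main fit. Those fits change only the spread and could not change a sign. *H2-Oa* kept its direction, but it was chosen for its difference from sgControl, so that this is no result about it. An adjusted p was given for 248 of the 312 differences, and 0 of these passed the threshold. The other values were 52 of *H2-Oa*, which was not tested, and 12 from DESeq2. With a pseudocount of 0.1, *H2-Aa* was at 0.65 in sgZbtb1 and 0.36 in sgLmo2. With edgeR and DESeq2, *H2-Eb1* in sgZbtb1 was at −0.58 and −0.61, and *H2-DMb2* in sgCbfa2t3 at 0.059 and 0.050. With 1 library left out, *Cd74* in sgCbfa2t2 ran from −0.37 to 0.10, *H2-DMa* in sgCbfa2t3 from −0.21 to 0.16 and in sgZbtb1 from −0.31 to 0.057, and *H2-DMb2* in sgCbfa2t3 from −0.63 to 0.49. *H2-Aa* ran from −1.32 to 0.065 in sgCbfa2t2, −1.06 to 0.32 in sgLmo2 and −0.94 to 0.44 in sgZbtb1. In sgCbfa2t3 *H2-Aa* kept its sign and ran from −1.55 to −0.17. *H2-Eb1* ran from −0.72 to 0.72 in sgCbfa2t2, −1.18 to 0.48 in sgCbfa2t3, −0.98 to 0.46 in sgLmo2 and −0.54 to 0.90 in sgZbtb1. The genes that changed sign, other than *Cd74* and *H2-DMa*, had 62 reads or fewer over all libraries, and the cause of these changes was not tested. Without a filter, *H2-Ab1*, *H2-DMb1* and *Ciita* were also fitted, with adjusted p from 0.644 to 1.

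At a score of at least 30, 1 Zbtb1 peak and 0 Cbfa2t3 peaks named a class II gene, and within 10 kb of its start 2 and 1 did. Centred within 50 kb of a start whatever gene was named, there were 3 Zbtb1 and 7 Cbfa2t3 peaks. Filling blank gene names from the transcript accession, an alternative chosen after seeing the data, gave 2 and 3.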

Other observations

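*Cd74* was lowest in replicate 1 in all 5 conditions and highest in replicate 2 in 4 of them, at 15.1, 7.92, 6.70, 10.1 and 8.04 TPM in replicate 1 of sgControl, sgLmo2, sgZbtb1, sgCbfa2t2 and sgCbfa2t3. *H2-Eb1* and *H2-Aa* were each lowest in replicate 1 in 3 of 5 conditions, and in sgCbfa2t3 *H2-Eb1* was at 0 in both replicates 1 and 2. *H2-Oa* was lowest in replicate 1 in 3 of 5 conditions and highest there in 0, and *H2-DMa* was lowest in replicate 1 in 0. The labels do not say what libraries with the same number share, and this pattern was seen after the values were known and was not tested.

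*H2-Aa* and *H2-Eb1* were highest in the same library, sgControl replicate 2, and Pearson's r between them was 0.72 on the log2 scale over the 15 libraries, beside 0.51 between *Cd74* and *H2-Aa* and −0.12 between *H2-Aa* and *H2-DMa*. These values describe libraries that share their depth and rest on few reads. Without sgControl replicate 2, the log2 difference of *H2-Eb1* was between 0.46 and 0.90 in the 4 comparisons, with no call.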
